A study of Mus musculus with 2 samples.

Results

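The miR-30 family of the mouse limb was described here from 6 microRNA (miRNA) genes, Mir30a, Mir30b, Mir30c-1, Mir30c-2, Mir30d and Mir30e. They were taken by gene symbol from the 1973 miRNA genes of each count table, and all 6 had a row in both libraries. The libraries held small RNA, below 30 nt, from limbs of healthy B6NCrl mouse embryos at embryonic day 15.5. Replicate 1 came from 78 pooled embryos and replicate 2 from 62, with males and females in each pool. The study had this 1 group and no treated, mutant or control samples, so levels were described and the 2 pools were compared with each other. A whole limb holds many cell types, and fewer cells of a type cannot be told apart from less RNA per cell.

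A miRNA is cut from a hairpin precursor, whose left arm gives the 5p and whose right arm the 3p mature miRNA. One of them is loaded into an Argonaute protein, and bases 2 to 8 of it, the seed, pair with messenger RNAs that are then repressed. The miR-30 genes share a 5p seed and lie in 3 genomic pairs. In the skeleton, miR-30 miRNAs are known to restrain osteoblast differentiation through Runx2, the master transcription factor of bone, and Smad1, which carries BMP signals. They are also known from endothelium, where they repress the Notch ligand Dll4, and from epithelial cells, where they repress Snai1.

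RefSeq mature sequences (GRCm38.p6) were held for 4 of the 6 genes, Mir30a, Mir30c-1, Mir30c-2 and Mir30e. Those of Mir30b and Mir30d were not in the table used. The 5p arms are shown first because their common seed, in capitals, defines the family and because their remaining bases decide whether a read can be assigned to 1 gene.
miR-30e-5p (Mir30e): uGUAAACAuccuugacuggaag
miR-30a-5p (Mir30a): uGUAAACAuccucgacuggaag
miR-30c-5p (Mir30c-1 and Mir30c-2): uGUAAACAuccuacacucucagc
miR-384-5p (Mir384): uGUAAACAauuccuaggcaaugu
Counted from 1 at the 5′ end, miR-30a-5p and miR-30e-5p differ by the single substitution C13U, with the base of miR-30a first. They are thus identical at 95.5% of 22 positions, and their longest common stretch is 12 nt. The 5p arms of miR-30a and miR-30c differ at 5 of 22 positions. Mir30c-1 and Mir30c-2 have the same 5p arm, letter for letter, so all of its 6 windows of 18 nt also occur in the precursor of the other copy. None of the 18-nt windows in the arms of Mir30a and Mir30e, or in the 3p arms of the Mir30c copies, occurred in the precursor of another gene among the 1005 hairpins of the table. The seed GUAAACA was found in 4 of 1679 mature miRNAs of the table (0.238%), from 5 genes, and the only one outside the family was miR-384-5p.

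The 3p arms (seeds in capitals) are shown because they split the 4 genes with sequences into another grouping. They are also what distinguishes the Mir30c copies.
miR-30e-3p (Mir30e): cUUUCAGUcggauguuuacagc
miR-30a-3p (Mir30a): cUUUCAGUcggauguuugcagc
miR-30c-1-3p (Mir30c-1): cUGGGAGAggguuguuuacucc
miR-30c-2-3p (Mir30c-2): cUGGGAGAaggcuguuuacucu
The 3p arms of Mir30a and Mir30e share the seed UUUCAGU, found in no other gene of the table. They differ by G18A, with the base of miR-30a first. Sequences of Mir30b and Mir30d were not held, so their 3p seeds were not compared. The Mir30c copies share the seed UGGGAGA with miR-6958-5p, and their 3p arms differ at 3 of 22 positions.

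The genes were counted on mm10, and positions are from GENCODE M21 on the same assembly. Mir30e (ENSMUSG00000065409.1, chromosome 4, 120772606 to 120772697, minus strand) and Mir30c-1 (ENSMUSG00000065490.1, chromosome 4, 120769534 to 120769622, minus strand) lie in introns of Nfyc, which encodes a subunit of the CCAAT-binding factor NF-Y. Their starts are 3072 nt apart. Mir30a (ENSMUSG00000065405.2, chromosome 1, 23272269 to 23272339, plus strand) overlaps no other annotated gene. Mir30c-2 (ENSMUSG00000065567.1, chromosome 1, 23291701 to 23291784, plus strand), 19432 nt further on, overlaps an exon of the long noncoding RNA gene Gm27028. Mir30d (ENSMUSG00000065437.1, chromosome 15, 68341208 to 68341289, minus strand) overlaps exons of the noncoding genes Gm20732 and Gm37296. Mir30b (ENSMUSG00000065476.2, chromosome 15, 68337415 to 68337510, minus strand), 3793 nt from it by start, overlaps an exon of the noncoding gene Gm26621.

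The libraries had 4263630 and 5151214 sense counts over miRNA genes, out of 9187400 and 10851823 reads. Reads with several alignments, 29.4% and 29.7% of all reads, were totalled on a line of their own and entered no gene. Levels are sense counts divided by the library's sense total and multiplied by 1000000 (CPM), given as the mean with the SD over n = 2 replicates. A short read covers a mature miRNA whole, so counts were not divided by length. Divided by the length of the precursor (71 to 96 nt), the levels placed the 6 genes in the same order. Intervals are 95% Wilson intervals unless named otherwise and cover counting error only. Markers of the limb were high in both libraries, with Mir140 of cartilage at 43163 ± 1100.3 CPM and Mir10b of the HoxD cluster at 8209 ± 81.5 CPM (SD, n = 2).

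Among the counts assigned to its genes, the family was led by 1 gene. Mir30e had 67257 sense counts in replicate 1 and 87861 in replicate 2, which is 15775 and 17056 CPM. Its mean of 16415 ± 906 CPM (SD, n = 2) placed it 16 among the 1973 genes, the same place as in each library alone. Its share of all sense counts was 1.58% in replicate 1 (1.57 to 1.59) and 1.71% in replicate 2 (1.69 to 1.72). Within the family Mir30e held 65.9% ± 2.10 of the assigned counts (SD, n = 2). These leave out reads with several alignments, so this is not its part of all miR-30 reads.

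Mir30a and Mir30d followed at about equal levels. Mir30a had 18328 and 21469 counts, or 4299 and 4168 CPM, with a mean of 4233 ± 92.6 CPM (SD, n = 2). Mir30d had 18273 and 20368 counts, or 4286 and 3954 CPM, with a mean of 4119.9 ± 235 CPM (SD, n = 2). The 2 genes took places 48 and 49 of 1973, and their replicate ranges overlapped, so the order between them was not separated beyond the spread. In replicate 1 the ratio of Mir30a to Mir30d was 1.00 (exact 95% interval 0.983 to 1.02) and in replicate 2 it was 1.05 (1.03 to 1.07). They lie on different chromosomes.

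The other 3 genes had few counts. Mir30b had 344 and 421 counts, or 80.7 and 81.7 CPM, with a mean of 81.2 ± 0.740 CPM (SD, n = 2). Mir30c-1 had 202 and 238 counts, or 47.4 and 46.2 CPM, and a mean of 46.8 ± 0.831 CPM (SD, n = 2). Mir30c-2 was the lowest of the family with 67 and 88 counts, or 15.7 and 17.1 CPM, and a mean of 16.4 ± 0.968 CPM (SD, n = 2). These 3 genes together held 0.0144% of the sense counts of replicate 1 and 0.0145% of replicate 2. From Mir30d to Mir30b the mean level dropped 50.7-fold. The ranges of the 2 replicates did not overlap for any neighbours in the order of the family other than Mir30a and Mir30d.

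**Figure D1:**
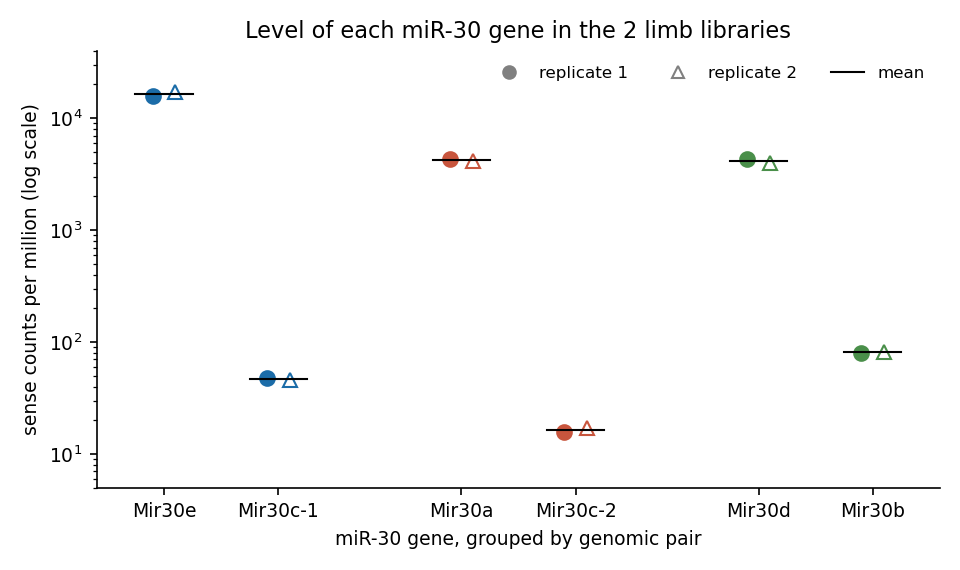
CPM on sense counts (log scale) of the 6 miR-30 genes, grouped by genomic pair, with replicate 1 as filled circles, replicate 2 as open triangles and the mean as a line. Mir30e, Mir30a and Mir30d lie above 3954 CPM in both replicates, while Mir30b, Mir30c-1 and Mir30c-2 lie at or below 81.7 CPM.

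The values of Mir30c-1 and Mir30c-2 cover only reads that aligned to 1 place, and their 5p arm is the same in both genes. How many of the reads with several alignments came from miR-30c-5p was not tested, so the total of miR-30c in the limb is not known from these counts. Counted genes with RefSeq mature sequences held were split by whether an arm was identical to a held arm of another gene. Genes without held sequences, Mir30b and Mir30d among them, got no class. Sharing with a sequence that was not held was missed, so some genes classed as sharing none may share an arm. Of 53 counted genes that share some but not all of their held arms with another gene, 37 were tested between the libraries, with a median of 56.3 CPM. Of 829 genes classed as sharing none, 268 were tested, with a median of 192 CPM. Of 34 that share all, 6 were tested, with a median of 146 CPM. Levels above 1000 CPM were found for 9.43% of the genes sharing some arms, 10.5% of those sharing none and 2.94% of those sharing all. Mir30c-1 and Mir30c-2 are both among the 53.

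Together the 6 genes had 104471 sense counts in replicate 1 and 130445 in replicate 2. This was 2.45% (2.44 to 2.47) and 2.53% (2.52 to 2.55) of the libraries, with a mean of 2.49% ± 0.0580 (SD, n = 2). For scale, the 10 counted genes of the let-7 family with Mir98, which accumulates as embryonic cells differentiate, held 13.7% ± 0.649. The 3 genes of the Mir26 family, which lie in introns of Ctdsp phosphatase genes, held 2.39% ± 0.149 (SD, n = 2), with 2.28% in replicate 1 and 2.49% in replicate 2. The Mir26 share lay below the miR-30 share in each library, but its replicate 2 value was above the miR-30 value of replicate 1. Reads with several alignments are in none of these shares. Each of these families has genes that share an arm with another gene, among them Mirlet7a-1, Mirlet7c-1, Mirlet7c-2 and Mirlet7f-2 of let-7. How many such reads each family lost was not tested, so the shares do not rank the families by total abundance. In the Mir26 family too, counts were uneven, with Mir26b at 23799 ± 1491 CPM and Mir26a-2 and Mir26a-1, which share an arm with each other, at 45.8 ± 0.799 and 9.70 ± 1.11 CPM (SD, n = 2).

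Each genomic pair combined 1 high and 1 low gene. Mir30e exceeded Mir30c-1 by 333-fold in replicate 1 (exact 95% interval 290.0 to 384) and by 369-fold in replicate 2 (325 to 421). Mir30a exceeded Mir30c-2 by 274-fold in replicate 1 (215 to 353) and 244-fold in replicate 2 (198 to 304). Mir30d exceeded Mir30b by 53.1-fold (47.7 to 59.3) and 48.4-fold (43.9 to 53.4). In both libraries the intervals of the pair on chromosome 15 lay below those of the other 2 pairs. Library totals cancel in these ratios, since both genes of a pair were counted in the same library.

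These ratios were set beside those of all 112 pairs of adjacent tested genes on the same strand with starts at most 50 kb apart. The higher gene exceeded the lower by a median of 7.01-fold, as a geometric mean over replicates. The Mir30e pair, at 351-fold, was exceeded by 1 pair, Mir20a with Mir19b-1 at 476-fold. The Mir30a pair, at 258-fold, was exceeded by 4 pairs, among them the Mir30e pair. The Mir30d pair, at 50.7-fold, was exceeded by 19. Pairs of a cluster can share a gene, as Mir20a and Mir92-1 each pair with Mir19b-1, so the 112 pairs are not independent. At the other end, Mir673 and Mir493 differed by 1.00-fold. With a minimum of 1 count over both replicates, 8, 11 and 33 pairs exceeded the Mir30e, Mir30a and Mir30d pairs, and 36 of 174 pairs gave no ratio because a gene had 0 counts in a replicate. With at least 100 counts in both replicates, 0 pairs exceeded the Mir30e pair and 12 the Mir30d pair, and Mir30c-2 fell out. In 16 of the 102 pairs with mature sequences held, only the lower gene was seen to share an arm with another gene. Their median ratio was 15.5-fold, against 6.41-fold in the 78 pairs where neither was seen to. Sharing with a sequence that was not held was missed, so some of the 78 may belong elsewhere, which could change both medians. The Mir30e and Mir30a pairs are among those 16; the part of the shared arm in their ratios was not tested.

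**Figure D2:**
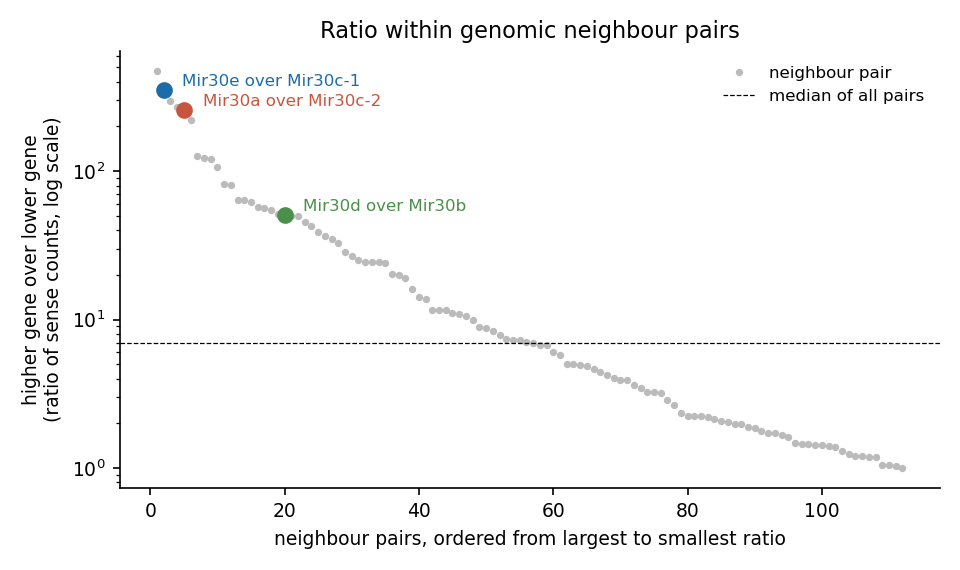
Ratio of sense counts of the higher over the lower gene (log scale, geometric mean of both replicates) in 112 neighbour pairs, ordered by size. The miR-30 pairs are the coloured points at 351-, 258- and 50.7-fold, and the dashed line is the median of 7.01-fold.

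In all 3 pairs the high gene was the first in the direction of transcription. Mir30e precedes Mir30c-1, Mir30a precedes Mir30c-2, and Mir30d precedes Mir30b. Over the 112 neighbour pairs the higher gene was the first in 59 (52.7%). With 3 pairs, this is a description of the family's layout.

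**Figure D3:**
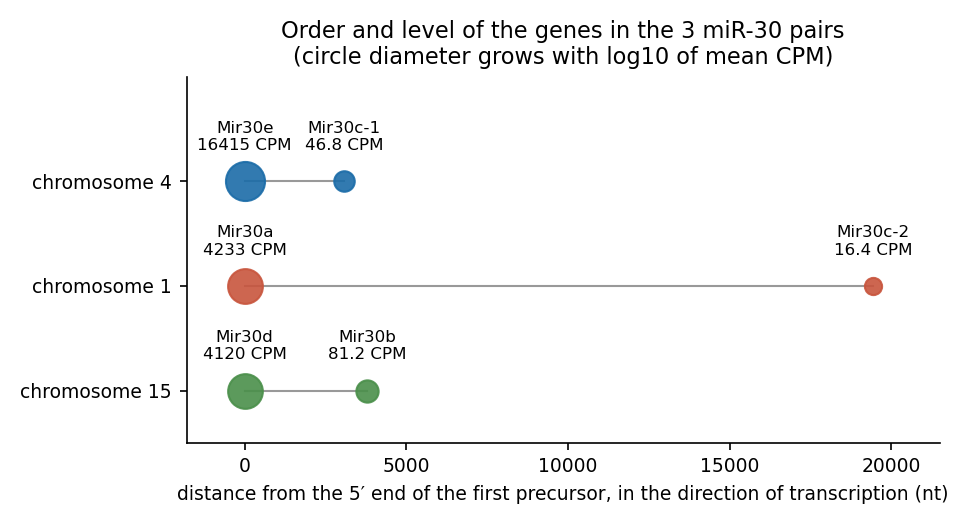
Distance in nt from the 5′ end of the first precursor, along the strand of each pair, for the 3 miR-30 pairs, with circles whose diameter grows with log10 of the mean CPM. The left gene of each pair is the one with more counts, from 16415 CPM for Mir30e against 46.8 for Mir30c-1 to 81.2 for Mir30b on the right of the last pair.

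Across pairs, genes of like position had more similar counts than genes of the same pair. Among the 3 high genes the ratios ran from 1.03 to 3.98, as geometric means over replicates, and among the 3 low genes from 1.74 to 4.96. Between the genes of a pair they ran from 50.7 to 351. The chromosome 4 pair was above the chromosome 1 pair at both positions. Mir30e exceeded Mir30a 3.67-fold in replicate 1 (exact 95% interval 3.61 to 3.73) and 4.09-fold in replicate 2 (4.03 to 4.15). Mir30c-1 exceeded Mir30c-2 3.01-fold (2.28 to 4.04) and 2.70-fold (2.11 to 3.49). In replicate 1 these intervals overlapped, and in replicate 2 they did not. The counts of both Mir30c copies lack reads of their common 5p arm that had several alignments. The part of these missing reads in the ratios of the low genes was not tested.

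The 2 pools gave nearly the same level for every gene of the family. Replicate 2 over replicate 1, the log2 ratio of CPM was 0.11 for Mir30e, -0.04 for Mir30a and -0.12 for Mir30d. It was 0.02 for Mir30b, -0.04 for Mir30c-1 and 0.12 for Mir30c-2. The fold thus ran from 0.923 (Mir30d) to 1.09 (Mir30c-2). Over the 340 genes that reached 10 sense counts in each library, the log2 ratio had a median of 0.02 and an SD of 0.376. Of these genes 326 differed more between the pools than Mir30b and 230 more than Mir30c-2, the member with the largest difference. The common dispersion from edgeR corresponds to a biological coefficient of variation of 14.7%, which leaves out counting noise. The SD of the 6 genes was 0.911% (Mir30b) to 5.90% (Mir30c-2) of their mean and includes it, so these are unlike measures. For the low genes the exact counting interval of the log2 ratio was -0.19 to 0.23 (Mir30b), -0.31 to 0.24 (Mir30c-1) and -0.35 to 0.60 (Mir30c-2). Each of these intervals spans both directions of change and is wide beside the ratio it surrounds. The small differences of these genes therefore do not measure how alike the pools were.

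Against counting noise, 3 of the 6 genes passed an adjusted p of 0.05 in an exact binomial test of the libraries, with Benjamini-Hochberg adjustment over all 340 tested genes. The background was 50.9% of tested genes (173), so the family's count was near it. By direction, 1 gene was higher in replicate 2, beside 25.3% of tested genes, and 2 were lower, beside 25.6%. Mir30e was the higher one (adjusted p = 1.09e-51, exact binomial test), and Mir30d was lower (adjusted p = 1.18e-14, exact binomial test). Mir30a was lower too (adjusted p = 0.00464, exact binomial test), but missed the threshold with all reads as the denominator (adjusted p = 0.529) and without Mir203, the most abundant gene, in the denominator (adjusted p = 0.0732). For the low genes the adjusted p was 0.923 for Mir30b, 0.884 for Mir30c-1 and 0.740 for Mir30c-2 by the same exact test. Their counting intervals were wide, from -0.35 to 0.60 on the log2 scale for Mir30c-2, against 0.10 to 0.13 for Mir30e. The test compares 2 libraries, not conditions, and with 2 pools no test of a condition is possible.

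**Figure D4:**
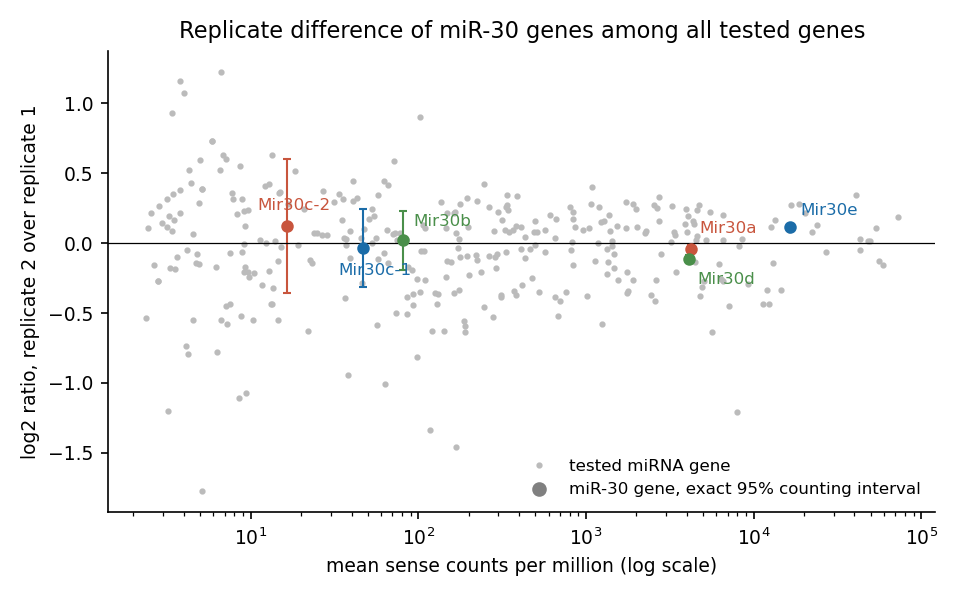
Log2 ratio of CPM, replicate 2 over replicate 1, against the mean CPM (log scale) for 340 tested miRNA genes in grey and the 6 miR-30 genes in colour, with exact 95% counting intervals. The miR-30 genes lie between -0.12 and 0.12, and the intervals narrow from Mir30c-2 to Mir30e as the counts rise.

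The balance within the pairs was also alike in the 2 pools. From replicate 1 to replicate 2 the ratio within the Mir30e pair changed 1.11-fold (exact 95% interval 0.914 to 1.34), that of the Mir30a pair 0.892-fold (0.639 to 1.24) and that of the Mir30d pair 0.911-fold (0.786 to 1.05). None passed the threshold by Fisher's exact test adjusted over all 112 neighbour pairs (adjusted p = 0.523, 0.675 and 0.413), while 34.8% of the neighbour pairs (39) did. Unadjusted, the exact p was 0.289, 0.519 and 0.214, so 0 of the 3 were under 0.05 there too. Changes beyond these intervals were not seen, and smaller ones could not be detected at the depth of the low genes.

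The pools differed in markers of several tissues. The 8 muscle marker genes with a row held 1.16% of the sense counts of replicate 1 and 0.499% of replicate 2, and all 5 of those tested passed the threshold as lower in replicate 2, beside 25.6% of all tested genes. Mir206, a muscle miRNA induced by MyoD, had 11050 CPM in replicate 1 and 4787 in replicate 2. The share of the miR-30 family differed 1.03-fold between the same libraries. The 7 epidermal markers held 9.62% and 10.8%, and all 7 passed the threshold as higher in replicate 2, beside 25.3% of all tested genes. The 6 Hox cluster genes held 4.89% and 5.90%, with 4 past it as higher, while Mir10b and Mir196a-1 did not pass it. The 2 cartilage markers held 4.76% and 4.56%, and both passed it as lower. Other sets differed less or had few genes. Of the 2 erythroid markers 0 passed it, and of the 3 tested leukocyte markers 1 passed it as higher. Mir126a of endothelium and Mir122 of liver, 1 gene each, passed it as higher. No neuron marker reached the count minimum.

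No read of the family was on the antisense strand. All 6 genes had 0 antisense counts in both libraries, which allows a share of up to 0.00287% of the family's sense counts in replicate 1 and 0.00230% in replicate 2. Over all miRNA genes 3.60% and 3.10% of the counts were antisense. This bears on Mir30f, a gene annotated on the plus strand opposite Mir30e that had no row of its own. The mature arm of Mir30f lies on chromosome 4, 120772621 to 120772642. Its mature miRNA is shown because its 5′ end is offset by 1 base from the family's 5p arms, which moves the seed (capitals) to UAAACAU.
miR-30f (Mir30f): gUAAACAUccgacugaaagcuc
Antisense counts at Mir30e, where reads of Mir30f would fall, were 0 and 0, beside 67257 and 87861 sense counts.

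The remaining gene with the family's 5p seed was Mir384 (ENSMUSG00000065499.1, chromosome X, 105344282 to 105344369, minus strand), a miRNA known from the brain. It had 14 and 22 sense counts, or 3.28 and 4.27 CPM, with a mean of 3.78 ± 0.698 CPM (SD, n = 2). The difference between the libraries did not pass the threshold (adjusted p = 0.637, exact binomial test). Mir384 thus lay below all 6 family members in both libraries.

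Among 15 genes of miRNAs reported to repress Runx2 in bone or cartilage cells, which include both Mir30c copies, 12 were tested. Of these, 4 were higher and 1 was lower in replicate 2 past the threshold, beside 25.3% and 25.6% of all tested genes, and the other 7 did not pass it. Their median log2 ratio was 0.11, beside 0.02 over all tested genes. The highest on the list were Mir23a with 26971 ± 821 CPM, Mir205 with 16206 ± 763 CPM and Mir34c with 339 ± 57.4 CPM (SD, n = 2). The list did not hold Mir30e (16415 CPM), Mir30a (4233 CPM) and Mir30d (4119.9 CPM), whose means lie above that of Mir34c, or Mir30b. Mir30c-1 took place 224 and Mir30c-2 place 254 of all genes by mean CPM. Reads of their common arm with several alignments entered no gene, so these places do not give the rank of their total.

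The genes most like Mir30e, by level and by replicate ratio, were found among 13 tested genes within 1.5-fold of its mean CPM. The smallest differences in log2 ratio over the 2 libraries were those of Mir100, Mir26b and Mir205. Mir100 had 12651 ± 706 CPM (SD, n = 2) and a log2 ratio of 0.11, Mir26b had a log2 ratio of 0.13, and Mir205 had one of 0.10. With 2 libraries this likeness describes 1 ratio per gene.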

How the data were processed

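Per the labels, small RNA below 30 nt was sequenced from total RNA of limbs in 2 biological replicates. Per the deposited listing, the tables hold gene quantifications on mm10 with annotation M4. The deposited values are raw counts of reads for each miRNA gene. From the values, the first column is the sum of the others, taken as sense and antisense reads in that order. Aligner, counter and trimming are not given in the sources used here. The submitters' reads with several alignments are in no gene.

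Identifiers without version were matched to GENCODE M21 (1894 of 1973; the 79 others held 0 and 2 sense counts). Sense counts were divided by their total. Tested genes had at least 10 sense counts in both replicates. Tests were the exact two-sided conditional binomial test given library totals and Fisher's exact test for neighbour pairs (scipy 1.17.1, Python 3.11.15). Benjamini-Hochberg adjustment ran over all tested genes for the binomial test and over all neighbour pairs for Fisher's test. Both tests were checked on simulated data that held counting noise only. Variation between pools beyond counting noise was not simulated. Dispersion and TMM factors came from edgeR 4.0.16 and size factors from DESeq2 1.42.0 in R 4.3.3. A count of 0 was given a limit of 3 counts. Intervals are at 95%. Named genes are the members, other genes with their seed, the 3 highest of the Runx2 list, the 3 genes most like the highest member, the compared families, tissue markers and the neighbour pairs of largest and smallest ratio. The split of genes and pairs by shared mature arms and by order along the strand was chosen after their values were seen. Members and lists were chosen with earlier results of these data known.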

Additional observations from a re-analysis of the deposited data

How the results depend on the processing

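The family share of 2.49% was 1.17% with all reads as the denominator, 2.69% without Mir203 and 2.41% with counts irrespective of strand, where the numerator stayed the same because the family had no antisense counts. Leaving out a replicate gave 2.45% and 2.53%. The count of members past the threshold was 2 with all reads and 2 without Mir203, against 3, and it was 3 with TMM factors, DESeq2 size factors, counts irrespective of strand and count minimums of 1 or 100. Genes past the threshold numbered 167 to 184 over these alternatives. This was 24.6% of 694 tested genes with a minimum of 1 count and 67.6% of 247 with a minimum of 100, where Mir30c-2 was not tested. In the other alternatives it was 51.8% to 53.2%. Neighbour pairs past the threshold numbered 33 (19.0% of 174, with a minimum of 1 count) to 43 (44.3% of 97, with a minimum of 100). No miR-30 pair was among them, and with a minimum of 100 counts the Mir30a pair could not be tested. No member changed its direction under the alternatives run. The replicate differences could not be recomputed without a replicate. No paired analysis was possible because there was 1 group. The counts of Mir30c-2, 67 and 88, limit what can be detected for it and its pair.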
